A study of Mus musculus with 38 samples.

Results

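The genes described here are 9 members of the integrated stress response that work around the transcription factor ATF4. A promoter cluster counted as a member if its highest position was on the strand of one of these genes and no more than 500 bp away from a start of its transcripts. Of the 10,819 clusters in the table, 6 met the rule, with 1 cluster each for Atf4, Atf5, Ddit3, Chac1, Psat1 and Ppp1r15a. No cluster of the table analysed here met it for the other 3 genes, Trib3, Asns and Phgdh, and no value is given for them. The study reported more clusters than this table holds, so a gene absent here may still have been detected there.

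In the integrated stress response, kinases that sense lack of amino acids, misfolded protein, viral RNA or lack of heme phosphorylate the translation factor eIF2. Most translation then falls, while mRNAs such as those of Atf4, Atf5 and Ddit3, which carry short upstream reading frames, are translated better. ATF4 raises transcription of genes for amino acid synthesis and transport and of genes that feed back on the response, and skeletal muscle is known to use it during disuse and mitochondrial stress.

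Capped 5′ ends of RNA from soleus, a slow postural muscle of the hind limb, were sequenced by nAnT-iCAGE, which counts each captured end as 1 tag without PCR amplification. The mice were young adult C57BL/6J males, with 1 library per mouse and 38 libraries in 2 experiments. All groups were sampled at the same hour late in the dark phase. The levels are TPM, the number of tags of a promoter per 1000000 tags of the library, with SD over mice. Tests were run on counts scaled with TMM, which can change the order of mice or the overlap of groups. In some such cases the scaled value is also given, as CPM (counts per 1000000 with the TMM factor). Orders of single mice given only in TPM can change with the scaling.

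In experiment #1, Pre mice (n = 4) were sampled on day 1 in a cool room with food. Mid mice (n = 8) were sampled on day 2 in the cool room after food withdrawal, when mice of this strain enter torpor, a state of low metabolism and body temperature. Post mice (n = 4) were sampled on day 3, after food was given back. HiT mice (n = 4) were fasted in a warm room, Fed mice (n = 4) kept their food in the cool room, and Dep mice (n = 4) were fasted in the cool room and touched gently whenever oxygen consumption began to drop. These 3 groups were sampled on day 2. Experiment #2 repeated the Pre (n = 2), Mid (n = 5) and Post (n = 3). The food of the HiT and Fed groups follows the methods of the study, since the sample labels state the opposite. Mid mice were not selected by their metabolic rate at sampling, so the group can hold mice in torpor and mice between bouts, and the muscle of a mouse could come from 1 or both legs.

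Tags in clusters numbered 18257657 to 39176649 per library in experiment #1 and 9359994 to 20914855 in experiment #2, and the 6 members had between 31 and 4211 tags in each library. The TMM factor, which corrects for the part of a library that a few strong promoters take, was lowest in HiT replicate 4 (0.679), where the 10 highest promoters held 40.3% of the tags. All 6 listed markers of slow and 8 of fast muscle fibers had clusters, with sums of at least 5460 and 4862 TPM in every library. The sum of 4 neutrophil markers was 117 TPM in Dep replicate 1 and at most 7.92 TPM in any other library.

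The peaks of all 6 clusters lay in the first exon of a coding transcript, in its 5′ UTR (mm10, GENCODE M21). Ddit3 (ENSMUSG00000025408.15), which encodes the pro-apoptotic factor CHOP, had its cluster at chr10:127290715-127290864 on the plus strand. For Chac1 (ENSMUSG00000027313.3), which encodes an enzyme that degrades glutathione, it was at chr2:119351051-119351429 on the plus strand. The cluster of Ppp1r15a (ENSMUSG00000040435.12), which encodes GADD34, the inducible subunit that directs a phosphatase to eIF2 and so ends the response, was at chr7:45525929-45526309 on the minus strand. Psat1 (ENSMUSG00000024640.9), an enzyme of serine synthesis, had its cluster at chr19:15924928-15925065 on the minus strand. Atf5 (ENSMUSG00000038539.15), a transcription factor related to ATF4, had its cluster at chr7:44816402-44816707 on the minus strand. In these 5 genes the peak lay 21 to 59 bp downstream of the start of that exon.

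For Atf4 (ENSMUSG00000042406.8) the cluster was at chr15:80255439-80255689 on the plus strand. Its peak lay 314 bp downstream of the start of the longer coding transcript, inside the 5′ UTR in exon 1, within an intron of the other coding transcript and 25 bp upstream of a transcript with a retained intron. No cluster of the table had its peak nearer to the start of the coding transcripts, so the Atf4 values below describe this internal start site.

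The promoter windows of 4 members are shown because these promoters carry the changes described below. They are RefSeq sequences of the GRCm38.p6 build, from 250 bases before to 50 bases after the RefSeq start, 5′ to 3′ on the strand of the gene. Capitals mark matches to TTNCATCA or its reverse complement, the core of the C/EBP-ATF response element that ATF4 dimers bind, to TGACGTCA, the cAMP response element, and to TATAAA or its reverse complement, the TATA box.

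Chac1: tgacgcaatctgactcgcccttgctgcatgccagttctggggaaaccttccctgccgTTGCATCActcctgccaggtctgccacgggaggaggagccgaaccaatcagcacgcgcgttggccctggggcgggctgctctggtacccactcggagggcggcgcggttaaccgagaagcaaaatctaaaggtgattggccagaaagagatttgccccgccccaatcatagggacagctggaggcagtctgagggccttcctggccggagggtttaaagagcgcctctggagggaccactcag
Ppp1r15a: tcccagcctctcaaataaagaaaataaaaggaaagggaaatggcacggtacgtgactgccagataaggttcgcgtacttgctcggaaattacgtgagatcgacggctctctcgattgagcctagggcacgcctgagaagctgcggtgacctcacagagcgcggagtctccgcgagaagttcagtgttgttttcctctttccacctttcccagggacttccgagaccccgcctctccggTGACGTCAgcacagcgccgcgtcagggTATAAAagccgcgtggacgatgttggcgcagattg
Ddit3: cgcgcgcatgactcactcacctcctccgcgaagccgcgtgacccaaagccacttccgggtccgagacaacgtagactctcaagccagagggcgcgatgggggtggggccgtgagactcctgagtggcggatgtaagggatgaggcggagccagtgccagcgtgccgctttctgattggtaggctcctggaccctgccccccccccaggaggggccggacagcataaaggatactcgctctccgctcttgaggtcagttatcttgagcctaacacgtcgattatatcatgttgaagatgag
Psat1: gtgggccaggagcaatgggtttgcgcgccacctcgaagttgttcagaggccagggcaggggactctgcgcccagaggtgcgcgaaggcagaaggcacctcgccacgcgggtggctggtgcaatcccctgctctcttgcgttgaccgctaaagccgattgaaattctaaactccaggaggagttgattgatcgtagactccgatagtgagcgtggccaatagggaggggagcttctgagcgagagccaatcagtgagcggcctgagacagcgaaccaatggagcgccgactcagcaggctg

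The windows lie at chr2:119350992-119351291, chr7:45526219-45526518, chr10:127290543-127290842 and chr19:15925010-15925309 in this order. The CAGE peaks fell on base 297 of the Chac1 window, base 293 of the Ppp1r15a window and base 253 of the Ddit3 window, and that of Psat1 lay 5 bases past the end of its window. Chac1 holds TTGCATCA, with its first base 239 bp upstream of the CAGE peak. This core was found in 3.97% of the 32,851 mouse promoter windows of the same length. Ppp1r15a holds TGACGTCA, starting 54 bp upstream of its peak, and TATAAA, starting 27 bp upstream, which occur in 1.79% and 13.6% of all windows. In the Ddit3 and Psat1 windows none of these 3 motifs was matched, and CCAAT, the box bound by NF-Y, was matched on either strand once in Ddit3 and 3 times in Psat1, as in 37.4% of all windows at least once. The Chac1 window also holds CCAAT 3 times and the GC box GGGCGG 3 times on either strand, and 35.7% of all windows have a GC box. Among the members without a cluster, the windows of Trib3 and Asns hold the ATF core and that of Phgdh does not. The window of Atf4 ends before the internal start site and is not shown. These matches are descriptions of letters and say nothing of binding.

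From the Pre to Mid, the promoters of Atf4, Chac1 and Ppp1r15a rose and that of Ddit3 fell, and those of Atf5 and Psat1 did not pass the test. The question of this comparison was which promoters differ between the fed mice of day 1 and the fasted mice of day 2. Food, day and torpor differ together between these groups and cannot be told apart in it. An FDR below 0.05 in the quasi-likelihood test of edgeR over all promoters was called a change, and 4 of the 6 members were called, 3 higher and 1 lower in the Mid. Of all 10,776 promoters tested, 30.2% were called, 15.4% higher and 14.8% lower. The median log2 fold change was 0.55 over the members and 0.01 over all promoters. In a whole muscle, fewer cells of a type and less RNA per cell cannot be told apart.

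Ppp1r15a was at 16.4, 18.8, 13.97 and 23.6 TPM in the 4 Pre mice, and between 27.3 and 67.6 TPM (median 50.5) in the 8 Mid mice. Every Mid mouse was above every Pre mouse. The log2 fold change was 1.51 with a standard error (SE) of 0.16, or 2.84-fold (FDR = 1.72e-07). The internal Atf4 start site was at 53.1, 54.3, 41.2 and 56.7 TPM in the Pre and between 59.9 and 132 TPM (median 86.8) in the Mid. Again the groups did not overlap, and the log2 fold change was 0.89 (SE 0.12, FDR = 3.06e-06).

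Chac1 varied most among the Mid mice, with a coefficient of variation of 50.1%, beside 14.5 to 32.3% for the other members. It was at 15.7, 16.3, 12.2 and 7.11 TPM in the Pre and between 6.00 and 66.7 TPM (median 39.0) in the Mid. Mid replicate 6, at 6.00 TPM, lay below all 4 Pre mice, and the other 7 Mid mice lay above them, from 23.0 TPM upwards. With TMM scaling this mouse was at 7.57 CPM, within the Pre range of 6.80 to 16.1 CPM. The log2 fold change was 1.66 (SE 0.37, FDR = 0.00141), or 3.16-fold. Replicate 6 also had the lowest Ppp1r15a in the group on both scales. Its Ddit3 was at 35.0 TPM, near the median of 34.8 TPM, but at 44.1 CPM it was the highest of the group with TMM scaling. It had the lowest TPM of the Atf4 site and Atf5 too, while with TMM scaling replicate 3 was lowest in the Atf4 site (74.5 CPM, beside 75.5 CPM in replicate 6) and replicate 1 in Atf5 (20.3 CPM, beside 21.04 CPM).

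Ddit3 moved the other way. It was at 63.2, 65.5, 49.0 and 60.2 TPM in the Pre and between 25.9 and 43.6 TPM in the Mid, so that every Mid mouse was below every Pre mouse. The log2 fold change was -0.67 (SE 0.12, FDR = 0.000221).

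Atf5 was at 19.5 ± 2.41 TPM (SD, n = 4) in the Pre and 21.4 ± 3.12 TPM (n = 8) in the Mid, with a log2 fold change of 0.22 and an interval of 2 SE on each side from 0.01 to 0.43 (FDR = 0.117). With TMM scaling every Mid mouse was above every Pre mouse in Atf5, at 20.3 CPM or more beside 20.2 CPM or less. Psat1 was at 4.77 ± 1.55 and 5.02 ± 1.62 TPM, and its interval ran from -0.28 to 0.58 (FDR = 0.637).

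**Figure D1:**
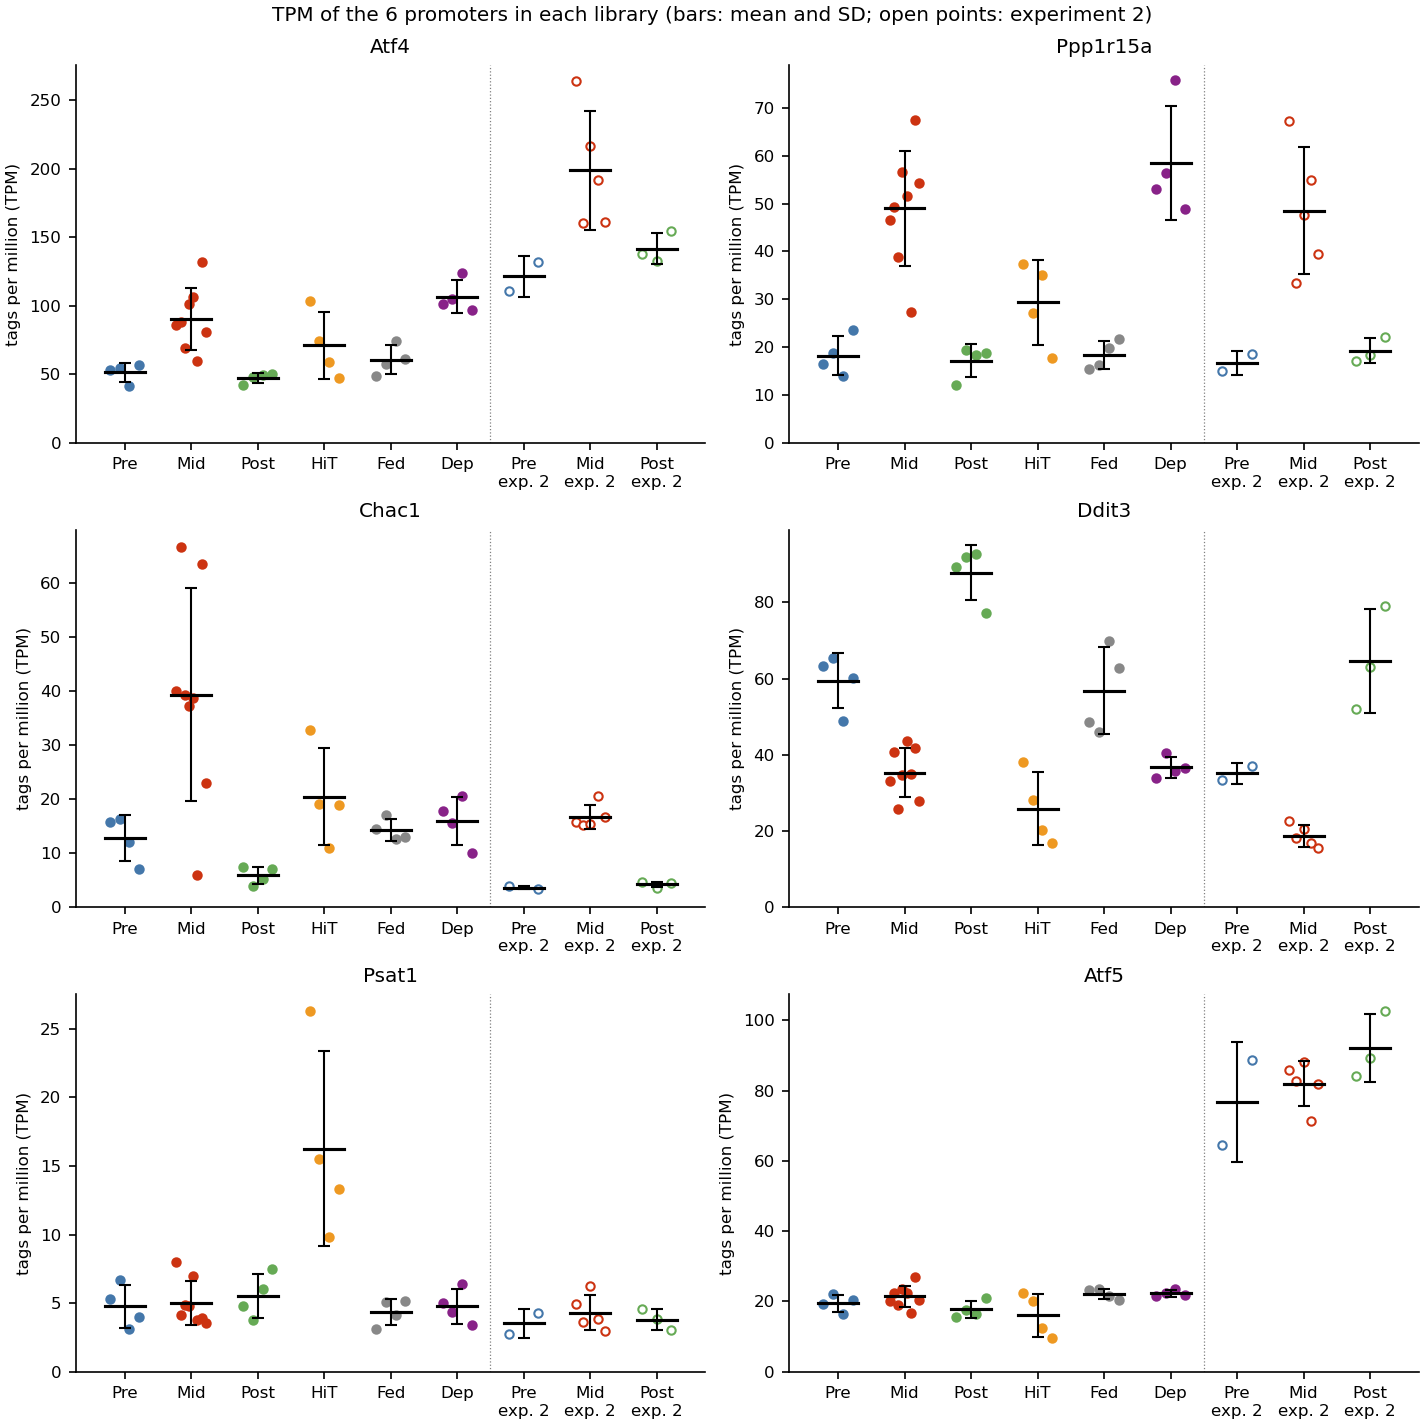
TPM of the 6 promoters (y axis, linear) in every library of the 6 groups of experiment #1 (filled points) and the 3 groups of experiment #2 (open points), with the mean and SD in black. Atf4 and Ppp1r15a are high in the Mid and Dep, Chac1 in the Mid, Ddit3 in the Post, and Psat1 in the HiT, where its 4 mice lie between 9.86 and 26.3 TPM.

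The Mid to Post comparison asked which of these changes returned after refeeding. It shares the Mid libraries with the Pre to Mid, so the directions are not independent. Called were 5 of 6 members, 1 higher and 4 lower in the Post, beside 35.0% of all promoters, 17.5% higher and 17.5% lower. Chac1 was at 7.43, 3.92, 5.24 and 7.05 TPM in the Post. The fitted change was -2.70 on the log2 scale (SE 0.40, FDR = 1.14e-05), and 7 of the 8 Mid mice were above every Post mouse, while Mid replicate 6 lay within the range of the Post.

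Ppp1r15a was at 12.1, 19.4, 18.4 and 18.7 TPM in the Post, below every Mid mouse (log2 fold change -1.53, SE 0.16, FDR = 5.35e-08). The Atf4 site was at 41.8, 47.9, 49.4 and 50.2 TPM and also lay below every Mid mouse (log2 fold change -0.94, SE 0.12, FDR = 8.91e-07). Ddit3 rose to 89.3, 92.0, 92.8 and 77.1 TPM, above every Mid and every Pre mouse, by 1.32 on the log2 scale (SE 0.12, FDR = 1.45e-08). The change of Atf5 from the Mid to Post was -0.29 (SE 0.10, FDR = 0.0316). The groups overlapped in TPM, and with TMM scaling every Mid mouse, at 20.3 CPM or more, was above every Post mouse, at 19.1 CPM or less. The call was lost without TMM (FDR = 0.284), with upper-quartile scaling (FDR = 0.0876), with the replicate block (FDR = 0.0923), with both experiments in 1 fit (log2 fold change -0.10, FDR = 0.321) and without Mid replicate 7 or 8 or Post replicate 2 or 3 (FDR from 0.0520 to 0.0936). Psat1 differed by 0.13 (interval from -0.30 to 0.55, FDR = 0.681).

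From the Pre to Post directly, Ddit3 was the only member of the 6 that was called, with a log2 fold change of 0.65 (SE 0.15, FDR = 0.0199), where 1.85% of all promoters were called, 1.05% higher and 0.798% lower. Its 4 Post mice were all above its 4 Pre mice. The call was lost without Pre replicate 3 (FDR = 0.0694) or 4 (FDR = 0.0568), and without Post replicate 1 (FDR = 0.0903), 2 (FDR = 0.0526) or 3 (FDR = 0.0518). Ppp1r15a differed by -0.03 (interval from -0.37 to 0.32) and the Atf4 site by -0.05 (interval from -0.31 to 0.21). Chac1 was at 12.8 ± 4.23 TPM in the Pre and 5.91 ± 1.64 TPM in the Post, a log2 fold change of -1.04 that was not called (SE 0.42, FDR = 0.262). Atf5 (-0.08, FDR = 0.857) and Psat1 (0.28, FDR = 0.702) were not called either.

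The same 4 members were called in experiment #2, in the same directions. From its Pre to Mid, 3 were higher and 1 lower, beside 9.74% of its 10,816 promoters, 5.30% higher and 4.44% lower. Chac1 was at 3.91 and 3.40 TPM in the Pre and at 15.7, 15.2, 15.3, 20.5 and 16.7 TPM in the Mid. Its log2 fold change was 2.24 (SE 0.19, FDR = 0.000184). Ppp1r15a was at 14.9 and 18.5 TPM in the Pre and at 67.2, 33.3, 47.6, 54.97 and 39.4 TPM in the Mid (log2 fold change 1.59, SE 0.26, FDR = 0.00504). Ddit3 was at 33.3 and 37.1 TPM in the Pre and between 15.5 and 22.6 TPM in the Mid (log2 fold change -0.86, SE 0.16, FDR = 0.00783). The Atf4 site rose by 0.77 on the log2 scale (SE 0.19, FDR = 0.0288). With 2 Pre mice, these calls depended on each of them: without Pre replicate 5, Chac1 alone was called, and without Pre replicate 6 Ddit3 (FDR = 0.0886) and the Atf4 site (FDR = 0.120) were not. The Atf4 call was also lost without Mid replicate 12 (FDR = 0.0548) and in a fit of only the compared groups (FDR = 0.0519). Atf5 (0.16, FDR = 0.472) and Psat1 (0.34, FDR = 0.555) were not called in the main fit.

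From the Mid to Post of experiment #2, Ddit3 rose and Chac1, Ppp1r15a and the Atf4 site fell, beside 16.4% of all promoters called, 7.73% higher and 8.65% lower. Ddit3 was at 51.9, 63.0 and 78.9 TPM in the Post (log2 fold change 1.71, SE 0.13, FDR = 3.16e-05). Chac1 was at 4.60, 3.65 and 4.43 TPM (log2 fold change -2.05, SE 0.16, FDR = 3.02e-05), and Ppp1r15a at 17.2, 18.3 and 22.1 TPM (log2 fold change -1.42, SE 0.22, FDR = 0.00164). The Atf4 site changed by -0.57 (SE 0.16, FDR = 0.0360). Atf5, called lower from the Mid to Post of experiment #1, differed here by 0.09 and was not called (FDR = 0.640). All 3 Post mice and 1 of the Mid mice were sequenced in 1 lane and the other Mid mice in another, and with the lane as a term Ppp1r15a (FDR = 0.0614) and the Atf4 site (FDR = 0.457) were no longer called. The Atf4 call was also lost without TMM (-0.48, FDR = 0.0690) and without Mid replicate 11 or 12, Pre replicate 6 or any of the Post mice (FDR from 0.0508 to 0.114).

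The difference between the experiments was tested as an interaction over all 38 libraries with edgeR. None of the 6 members passed for the Pre to Mid, where 0 were at an unadjusted p below 0.05, or for the Mid to Post, where 1 was, namely Atf5, for which edgeR gave an FDR of 0.767. Of all 10,819 promoters 0.00% passed in each, with 551 and 682 promoters at an unadjusted p below 0.05. The widest interval was that of Chac1 for the Pre to Mid, from -0.66 to 1.83 on the log2 scale. The levels of some members differed between the experiments. Atf5 was 3.92, 3.83 and 5.20 times as high in the Pre, Mid and Post of experiment #2 as in experiment #1, and the Atf4 site 2.37, 2.20 and 2.99 times. Chac1 was 0.285, 0.424 and 0.715 times as high and Ddit3 0.592, 0.530 and 0.736 times. Psat1, at 0.739, 0.861 and 0.689 times, and above all Ppp1r15a, at 0.918, 0.990 and 1.12 times, were nearer to the levels of experiment #1. These ratios of TPM were not tested, since the experiment and its sequencing cannot be told apart.

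The Fed mice stayed in the same cool room as the Mid mice but had food. Food and torpor differ together between these groups and cannot be told apart. From the Fed to Mid, 3 members were higher and 1 lower in the Mid, beside 35.2% of all promoters, 16.6% higher and 18.6% lower. Ppp1r15a was at 15.5, 16.2, 19.8 and 21.8 TPM in the Fed, below every Mid mouse (log2 fold change 1.52, SE 0.16, FDR = 1.18e-07). Chac1 was at 14.6, 17.1, 12.7 and 12.97 TPM in the Fed, and 7 of 8 Mid mice were above all of them (log2 fold change 1.51, SE 0.37, FDR = 0.00254). The Atf4 site was at 48.9, 57.5, 74.2 and 61.5 TPM in the Fed, and 6 of 8 Mid mice, or 8 of 8 with TMM scaling, were above the highest of them (log2 fold change 0.68, SE 0.11, FDR = 5.75e-05). Ddit3 was at 48.5, 46.1, 70.0 and 62.7 TPM in the Fed, above every Mid mouse (log2 fold change -0.56, SE 0.12, FDR = 0.00102). Atf5 (0.04, interval from -0.16 to 0.25) and Psat1 (0.28, interval from -0.16 to 0.71) were not called. Other cell markers moved in this comparison too. All 4 red blood cell genes with clusters were called lower in the Mid than in the Fed, and of 4 endothelial genes 3 were lower and 1 higher. The summed level of the red blood cell genes was 12635 TPM in Fed replicate 2 and between 2717 and 5775 TPM in the other Fed mice, beside 2369 to 4465 TPM in the Mid. Their part in the changes of the members was not tested.

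The HiT mice were fasted like the Mid mice but kept warm. Room temperature and torpor differ together between these groups and cannot be told apart. Psat1 was lower in the Mid than in the HiT, and Ppp1r15a, Ddit3 and Atf5 were higher. Of all promoters 41.0% were called, 19.2% higher and 21.8% lower in the Mid. Psat1 was at 26.3, 15.5, 9.86 and 13.3 TPM in the 4 HiT mice and between 3.56 and 8.003 TPM (median 4.49) in the 8 Mid mice. Every HiT mouse was above every Mid mouse. The log2 fold change from the HiT to Mid was -1.79 (SE 0.20, FDR = 1.05e-07), and it was between -1.92 and -1.60 when any 1 library was left out. The 24 other libraries of experiment #1, in all 5 other groups, had at most 8.003 TPM.

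Markers of macrophages stood with Psat1. Of 5 listed, 4 had clusters, and all 4 were lower in the Mid than in the HiT, among them Cd68 (log2 fold change -2.96, FDR = 1.91e-10) and Csf1r (-1.47, FDR = 1.87e-06), while Adgre1 had no cluster. Their summed level was 139, 103, 47.2 and 62.3 TPM in the HiT mice and at most 43.2 TPM in any other library of experiment #1. HiT replicate 1 had both the highest sum and the highest Psat1, and HiT replicate 3 the lowest of both in the group. Muscle fiber markers also moved from the HiT to Mid. Of 6 slow fiber genes 3 were higher, and of 8 fast fiber genes 2 were higher and 1 lower. Myh4, the myosin of the fastest fibers, was at 4.27 TPM in the HiT and 309 TPM in the Mid (log2 fold change 6.09, SE 1.48, FDR = 0.00188). The part of macrophages and of fiber types in the member changes from the HiT was not tested.

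**Figure D2:**
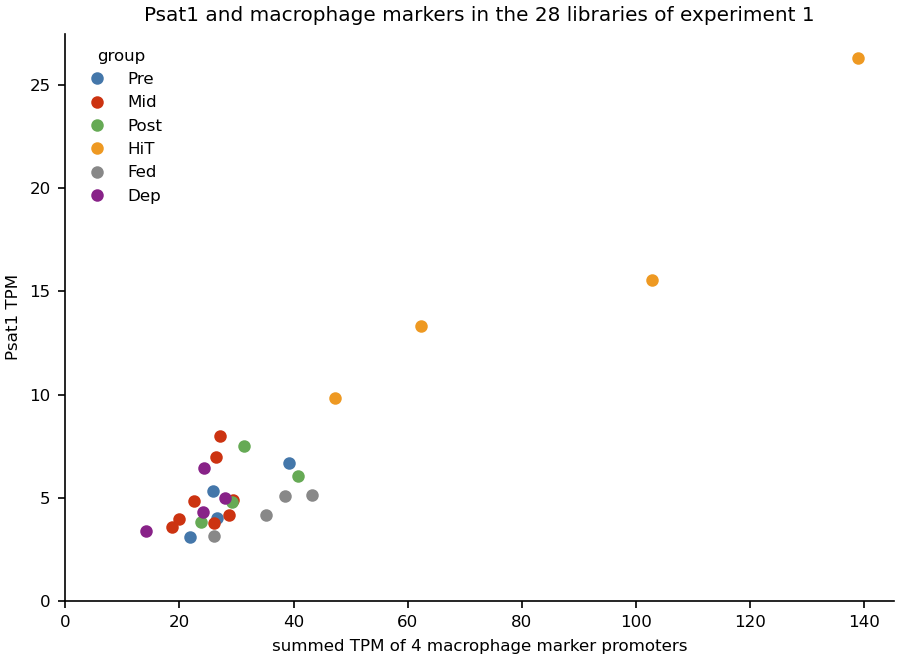
Psat1 TPM (y axis) against the summed TPM of the promoters of 4 macrophage markers (x axis) in the 28 libraries of experiment #1, 1 point per mouse. The 4 HiT mice lie apart at the upper right, from 47.2 to 139 TPM on the x axis, and the other 24 libraries lie at or below 43.2 TPM of the markers and 8.003 TPM of Psat1.

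Ppp1r15a was at 37.4, 27.1, 35.2 and 17.6 TPM in the HiT, and 7 of 8 Mid mice, or 6 of 8 with TMM scaling, were above the highest HiT mouse (log2 fold change 0.64, SE 0.15, FDR = 0.00118). Ddit3 was at 38.2, 28.1, 20.2 and 16.8 TPM in the HiT, where 3 of 8 Mid mice, or 4 of 8 with TMM scaling, were above the highest HiT mouse (log2 fold change 0.38, SE 0.13, FDR = 0.0198). Atf5 was at 22.5, 20.004, 12.5 and 9.59 TPM in the HiT (log2 fold change 0.35, SE 0.10, FDR = 0.0101). Here 2 of 8 Mid mice, or 6 of 8 with TMM scaling, were above the highest HiT mouse. In Ddit3 and Atf5 the groups overlapped, and both calls were lost without TMM (FDR = 0.0614 and FDR = 0.0751), and that of Ddit3 without HiT replicate 3 (FDR = 0.0675). The Atf4 site was at 104, 74.5, 58.9 and 47.5 TPM in the HiT, with a log2 fold change of 0.26 that edgeR did not call (interval from 0.04 to 0.49, FDR = 0.0658). Chac1 was at 32.8, 19.2, 11.1 and 18.9 TPM in the HiT, and its change of 0.82 was not called by edgeR either (SE 0.36, FDR = 0.0672). DESeq2 called both, the Atf4 site at 0.28 (FDR = 0.0390) and Chac1 at 0.83 (FDR = 0.0354), so that 6 of 6 members passed with it, and with RLE scaling in edgeR the Atf4 site passed (FDR = 0.0493). Without Mid replicate 6, Chac1 was called at 1.00 (FDR = 0.00459) and the Atf4 site at 0.32 (FDR = 0.0207). The Atf4 site also passed without Mid replicate 3 (FDR = 0.0283), HiT replicate 1 (FDR = 0.0171) or Dep replicate 4 (FDR = 0.0494), and Chac1 without Mid replicate 8 (FDR = 0.0496).

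Against the Pre, the fasted and warm HiT mice had 3 members higher and 1 lower, beside 33.4% of all promoters, 18.5% higher and 14.9% lower. Food, day and room temperature differ together in this comparison and cannot be told apart. Psat1 rose by 1.94 on the log2 scale (SE 0.25, FDR = 1.76e-06), Ppp1r15a by 0.86 (SE 0.17, FDR = 0.000310) and the Atf4 site by 0.63 (SE 0.13, FDR = 0.000495), and Ddit3 fell by 1.05 (SE 0.15, FDR = 5.97e-06). For Psat1 and Ddit3 the 4 HiT and 4 Pre mice did not overlap, and for Ppp1r15a and the Atf4 site 3 of 4 HiT mice, or 4 of 4 with TMM scaling, were above all Pre mice. The Atf4 call was lost without TMM (0.47, FDR = 0.114). The 4 macrophage markers were higher in the HiT than in the Pre, and 3 of 4 red blood cell genes, 2 of 6 slow fiber genes and 2 of 8 fast fiber genes were lower. Chac1 differed by 0.84 (interval from 0.03 to 1.65, FDR = 0.114, and 0.0351 without Mid replicate 6) and Atf5 by -0.13 (interval from -0.37 to 0.11).

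Dep mice, fasted in the cool room but kept from torpor by touch, were compared with the Mid mice. Touch and torpor differ together between these groups and cannot be told apart. None of the 6 members was called by the quasi-likelihood test of edgeR, beside 2.03% of all promoters, 1.16% higher and 0.872% lower. At an unadjusted p below 0.05 there were 3 members, namely Chac1, the Atf4 site and Ppp1r15a, and DESeq2 called 2, Chac1 and the Atf4 site, and the likelihood ratio test of edgeR called 1, Chac1. Chac1 was at 17.8, 15.7, 20.6 and 10.1 TPM in the Dep mice, and 7 of the 8 Mid mice, from 23.0 TPM upwards, were above all of them. The log2 fold change from the Mid to Dep was -1.18 (SE 0.36, FDR = 0.0827), and without Mid replicate 6 it was -1.34 (FDR = 0.0101). The Atf4 site was at 101, 105, 124 and 96.6 TPM in the Dep, within the range of the Mid (log2 fold change 0.35, SE 0.11, FDR = 0.0896). With TMM scaling the Dep mice were at 115 to 127 CPM. They lay below Mid replicate 7 (134 CPM) and above the next highest Mid mouse, replicate 5 (101 CPM). Without Mid replicate 7 the Atf4 site was called at 0.44 (FDR = 0.00937). Ppp1r15a was at 53.0, 56.4, 75.7 and 48.8 TPM (log2 fold change 0.35, SE 0.14, FDR = 0.176). Intervals were -0.09 to 0.42 for Ddit3, -0.04 to 0.37 for Atf5 and -0.41 to 0.46 for Psat1. Dep replicate 1, the mouse with high neutrophil markers, had 17.8 TPM of Chac1, 101 TPM of the Atf4 site and 53.0 TPM of Ppp1r15a. In TPM these were inside the range of the other 3. With TMM scaling this mouse was the highest of the Dep in Chac1 (20.2 CPM, beside 13.2 to 19.97 CPM). It was the lowest in the Atf4 site (115 CPM, beside 117 to 127 CPM) and in Ppp1r15a (60.2 CPM, beside 62.8 to 73.3 CPM).

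Compared with the Pre, the Atf4 site, Ppp1r15a and Atf5 were higher and Ddit3 was lower in the Dep, beside 25.8% of all promoters, 13.7% higher and 12.1% lower. Food, day and touch differ together in this comparison and cannot be told apart. Every Dep mouse was above every Pre mouse in Ppp1r15a (log2 fold change 1.86, SE 0.17, FDR = 4.99e-08) and in the Atf4 site (1.24, SE 0.13, FDR = 2.53e-07). Ddit3 was at 33.9, 40.5, 35.9 and 36.6 TPM in the Dep, below every Pre mouse (-0.50, SE 0.15, FDR = 0.0131), and was not called without Dep replicate 3 (FDR = 0.0517). Atf5 differed by 0.38 (SE 0.12, FDR = 0.0188). Its groups overlapped in TPM, and with TMM scaling all 4 Dep mice (22.9 to 28.6 CPM) were above all 4 Pre mice (17.6 to 20.2 CPM). It was not called without TMM (FDR = 0.514), Pre replicate 3 (FDR = 0.0633) or Dep replicate 4 (FDR = 0.0590). Chac1 (0.48, interval from -0.34 to 1.29, FDR = 0.413) and Psat1 (0.18, interval from -0.32 to 0.68, FDR = 0.640) were not called.

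**Figure D3:**
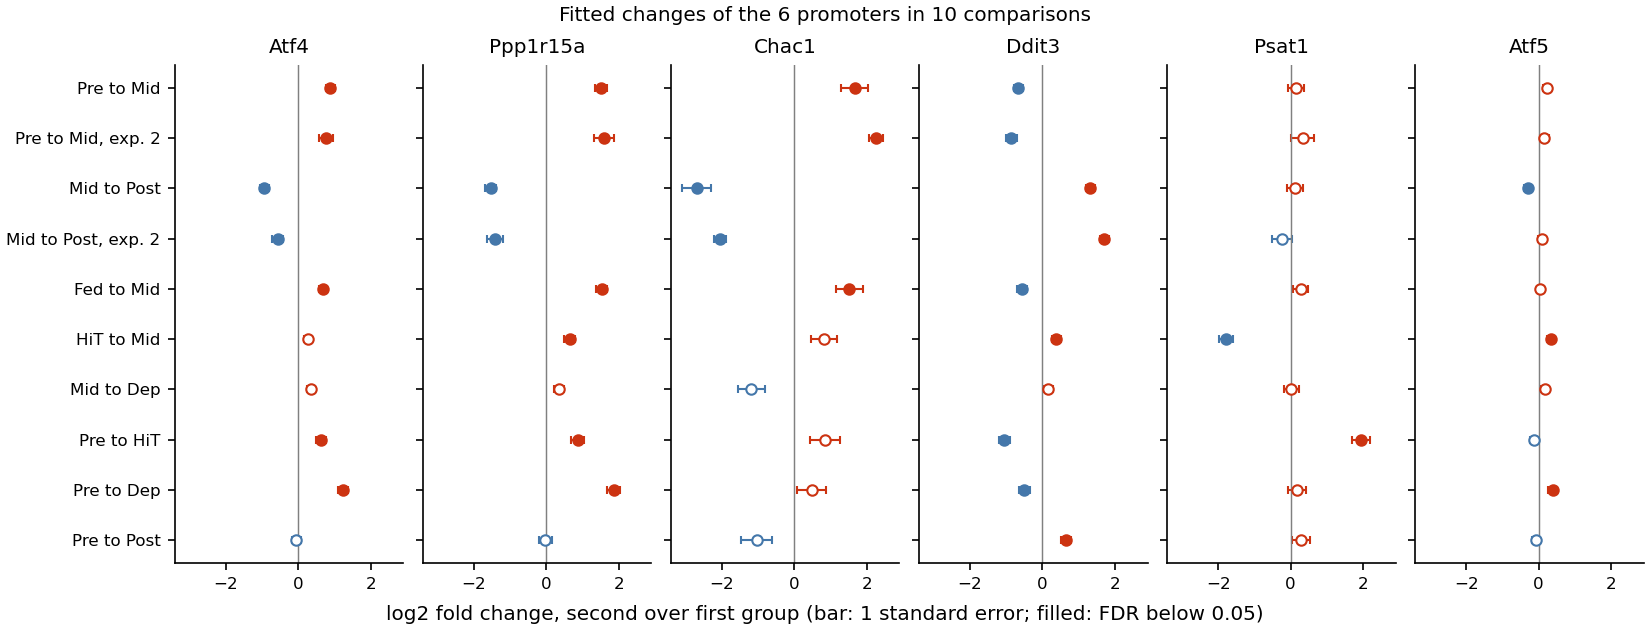
Log2 fold changes of the 6 promoters (x axis, second over first group) in the 10 comparisons (rows), with bars of 1 SE and filled points for an FDR below 0.05. Atf4, Ppp1r15a and Chac1 are filled on the right for the Pre to Mid and Fed to Mid and on the left for the Mid to Post, Ddit3 has the opposite sides, and Psat1 is filled only where the HiT enters.

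By mean TPM over the 6 groups of experiment #1, Ppp1r15a stood in the order Dep, Mid, HiT, Fed, Pre and Post, with 58.5 ± 11.9, 49.0 ± 12.1, 29.3 ± 8.97, 18.3 ± 2.98, 18.2 ± 4.12 and 17.1 ± 3.40 TPM. The Atf4 site had the same order, with 107 ± 12.1, 90.3 ± 22.7, 71.2 ± 24.4, 60.5 ± 10.5, 51.3 ± 6.89 and 47.3 ± 3.78 TPM. In both, each group overlapped in TPM with its neighbor in the order, and with TMM scaling the HiT stood apart from the Fed. For Chac1 the order was Mid, HiT, Dep, Fed, Pre and Post, with 39.3 ± 19.7, 20.5 ± 9.02, 16.05 ± 4.46, 14.3 ± 2.01, 12.8 ± 4.23 and 5.91 ± 1.64 TPM, and again all neighbors overlapped.

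Ddit3 had the order Post, Pre, Fed, Dep, Mid and HiT, with 87.8 ± 7.28, 59.5 ± 7.30, 56.8 ± 11.4, 36.7 ± 2.77, 35.3 ± 6.42 and 25.8 ± 9.52 TPM. The Post stood apart from the Pre and the Fed from the Dep, and the other neighbors overlapped. Psat1 was at 16.3 ± 7.11 TPM in the HiT, apart from the rest, which ran from 5.53 ± 1.60 TPM in the Post to 4.38 ± 0.945 TPM in the Fed. Atf5 ran from 22.3 ± 0.973 TPM in the Dep to 16.1 ± 6.11 TPM in the HiT, with all neighbors overlapping in TPM, while with TMM scaling the Mid stood apart from the Pre.

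Over the 28 libraries of experiment #1, the promoters most like each member by Pearson's r of log2(TPM + 0.1) were listed as a description among 8,910 genes. Such values share the libraries, a scaling to TPM that does not carry the TMM factor, and 6 groups that differ. For Ppp1r15a they were Ell, Mafk, Pde4d, Gabarapl1 and Dnajb9, with r from 0.95 to 0.97. The list of Atf4 was Dnajb9, Kin, Timm10, Mafk and Ppp1r15a, with r from 0.93 to 0.95, so that 1 member stood in the list of another. For these 10 entries, r over the 10 libraries of experiment #2 was between 0.81 and 0.98. Nearest to Chac1 were Dhx40, Ulk1, Npc1, Ern1 and Osbpl11 (r from 0.84 to 0.87), and nearest to Ddit3 were 2610044O15Rik8, Cd200, Stac3, Synpo2l and Afap1l1 (r from 0.90 to 0.93). Psat1 was nearest to Fcgr3, Clic1, Mpeg1, Mmp19 and Csrp2 (r from 0.91 to 0.93), of which Fcgr3 and Mpeg1 are known from macrophages, and in experiment #2, which has no HiT mice, r ranged from -0.41 to 0.49. The 5 genes nearest to Atf5, led by Tor1aip1 (r = 0.88), had r between -0.64 and 0.14 in experiment #2. Between Ddit3 and Chac1, r was -0.51 in experiment #1 and -0.87 in experiment #2.

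The pathway around the members was read from lists, and each count stands beside the share of all promoters. Single list genes were not followed through the alternative fits, so their calls are those of the main fit. Of all promoters, 15.4% were called higher and 14.8% lower between the Pre and Mid, 17.5% and 17.5% between the Mid and Post, and 1.16% and 0.872% between the Mid and Dep. In the Mid 19.2% were higher and 21.8% lower than in the HiT, and 16.6% higher and 18.6% lower than in the Fed. Experiment #2 had 5.30% and 4.44% between its Pre and Mid.

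Upstream of ATF4, the list of the eIF2 kinases and their partners had 5 measured genes. Gcn1l1, the partner of the amino acid sensor GCN2, was the only one of them called from the Pre to Mid (0.36, FDR = 0.00202), and in experiment #2 edgeR called 0 of 5, with 0 higher or lower at an unadjusted p below 0.05. In the Post 3 of 5 differed from the Mid, Eif2ak2 higher (0.47, FDR = 0.0179) and Gcn1l1 (-0.42, FDR = 0.000433) and Dele1 (-0.20, FDR = 0.00749) lower. Impact, which inhibits GCN2, was higher in the Dep than in the Mid in the main fit (0.58, FDR = 0.0267). Clusters for Eif2ak3 and Eif2ak4, which encode PERK and GCN2, were not in the table analysed here. From the HiT to Mid, Eif2ak2, the kinase that senses double-stranded RNA, was lower by 0.87 (FDR = 5.05e-05) and Dele1, which relays mitochondrial stress, was higher by 0.21 (FDR = 0.00511). Of 9 promoters for eIF2, eIF2B and the constitutive phosphatase subunit, 1 was higher from the Pre to Mid, Ppp1r15b (0.27, FDR = 0.0289), and 1 of 9 in experiment #2. From the Fed to Mid 6 of the 9 were higher.

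Among 8 bZIP partners and regulators of ATF4, 4 were higher and 0 lower from the Pre to Mid, namely Atf3 (1.25, FDR = 0.000510), Crtc2, Cebpb (0.73, FDR = 1.94e-05) and Nfe2l2, while in experiment #2 it was 1 of 8. Atf3, a repressor induced by ATF4, rose from 7.25 TPM in the Pre to 16.5 TPM in the Mid and was at 28.01 TPM in the Dep. From the Mid to Dep, Atf3 and Jun were called higher in the main fit (0.88, FDR = 0.0427, and 0.41, FDR = 0.0163). A fit of only the Mid and Dep called 2 of all promoters, and whether Atf3 or Jun was among them was not followed. From the HiT to Mid 2 of the 8 partners were higher, Atf3 and Cebpb, and 2 lower, Fos and Jun.

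Most measured promoters of other known ATF4 targets for signaling rose, while the secreted factors of the same list were not measured. From the Pre to Mid 8 of 9 measured were higher and 0 lower, with a median of 0.89, and in experiment #2 5 of 9 were higher and 0 lower, with a median of 0.79. Ddit4, an inhibitor of mTORC1, rose from 3.85 TPM to 22.7 TPM (2.65, FDR = 5.07e-05), Cdkn1a, the cell cycle inhibitor p21, from 54.6 TPM to 225 TPM (2.11, FDR = 1.54e-06) and Eif4ebp1, a repressor of cap-dependent translation, from 134 TPM to 262 TPM (1.02, FDR = 4.41e-06). From the Mid to Post 6 were lower, and from the HiT to Mid 4 of the 9 were higher. Clusters for Fgf21, Gdf15 and Stc2, which encode these secreted factors, were not in the table analysed here.

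Targets for amino acid and one-carbon metabolism changed in both directions. Of 8 measured, Cth, which makes cysteine, was higher from the Pre to Mid (1.39, FDR = 0.000184), and Psph, the last enzyme of serine synthesis, was lower (-0.65, FDR = 0.000100). In experiment #2 edgeR called 1 of 8, lower, with 2 higher at an unadjusted p below 0.05. From the HiT to Mid, 3 were lower and 3 higher. Among the lower ones were Mthfd2, of mitochondrial one-carbon metabolism (-1.62, FDR = 7.50e-09), and Aldh18a1, of proline synthesis (-1.58, FDR = 3.32e-07), with values near that of Psat1, and among the higher ones Got1 (1.00, FDR = 1.11e-07) and Gpt2 (0.96, FDR = 7.87e-05), which transfer amino groups. In the HiT mice Mthfd2 was at 9.24 TPM and Aldh18a1 at 7.80 TPM, and from 2.98 to 3.89 TPM and from 2.72 to 4.64 TPM in the means of the other groups.

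Of the amino acid transporters, 2 of 3 measured were higher from the Pre to Mid, Slc38a2 (0.75, FDR = 0.00121) and Slc3a2 (0.52, FDR = 0.0182), and 1 of 3 in experiment #2. In the main fit 1 of 3 was higher from the HiT to Mid and 1 of 3 from the Mid to Dep. The list of cytosolic tRNA synthetases, which also holds the tRNA exporter gene Xpot, had 13 measured promoters. Of these, 9 were higher and 0 lower from the Pre to Mid, by little, with Nars (0.44, FDR = 2.53e-05) changed most. The median over the 13 was 0.19. From the HiT to Mid 2 of the 13 were higher and 3 lower, with a median of 0.01. In experiment #2 it was 0.16, and edgeR called 0 of 13 there, where 4 were higher at an unadjusted p below 0.05.

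Arms of the endoplasmic reticulum stress response outside ATF4 had 13 measured promoters. From the Pre to Mid 4 were higher and 0 lower, among them the chaperone gene Dnajb9 (1.07, FDR = 1.81e-06) and Ern1, which encodes the sensor IRE1 (0.63, FDR = 0.000499), and in experiment #2 1 was higher and 1 lower. From the HiT to Mid 3 were higher and 7 lower, and the lower ones included Sdf2l1 (-1.05, FDR = 0.000596), Pdia4 (-0.97, FDR = 4.78e-06) and Calr (-0.87, FDR = 6.23e-07), which act in protein folding. In the lists with 0 promoters lower from the Pre to Mid by edgeR, 0 were lower at an unadjusted p below 0.05 as well.

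**Figure D4:**
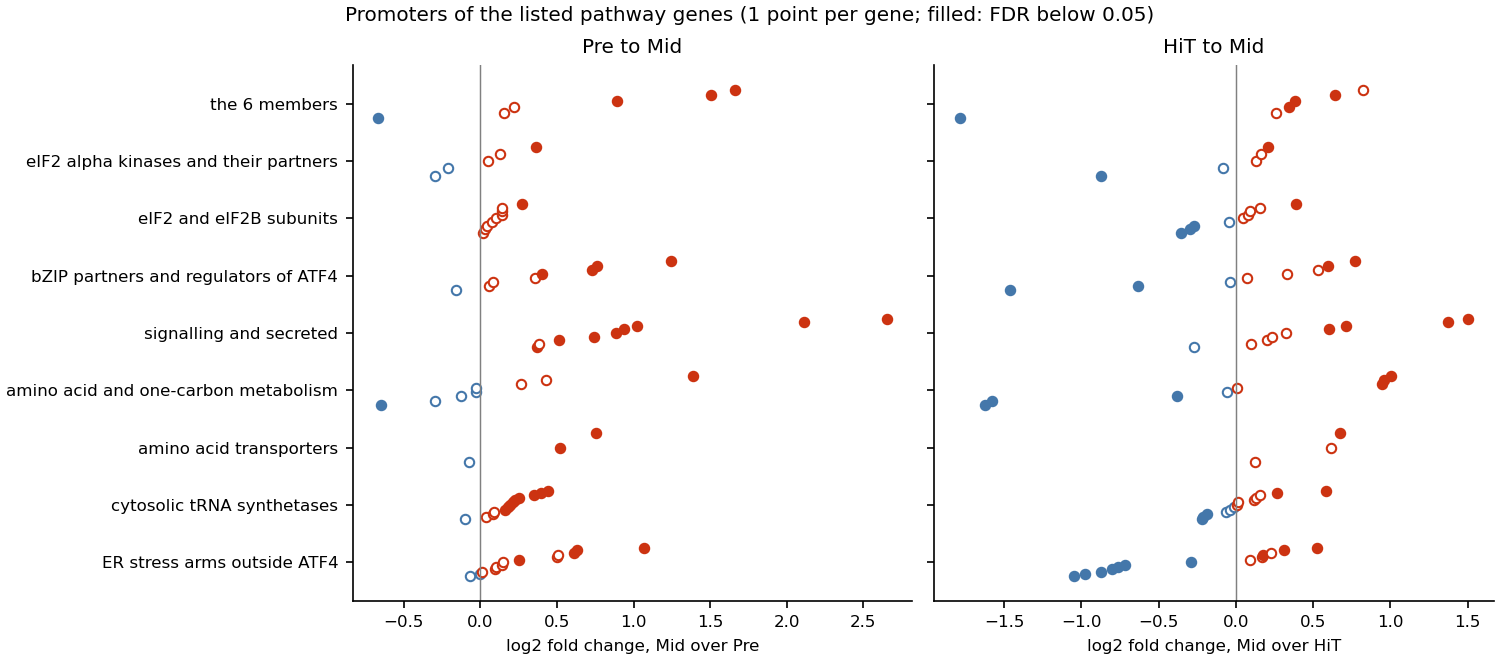
Log2 fold changes (x axis) of the members and of the genes in 8 pathway lists (rows), 1 point per gene, for the Pre to Mid and the HiT to Mid, with filled points for an FDR below 0.05. In the Pre to Mid the signaling targets lie to the right, up to 2.65 for Ddit4, and in the HiT to Mid amino acid enzymes and folding genes lie on both sides of 0.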

How the data were processed

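Capped 5′ ends of soleus RNA were measured in 38 libraries, which were grouped by the sample labels. Each of the 38 deposited count columns holds whole tags per cluster that the authors did not normalize, after mapping to mm10 with bwa and hisat2 and clustering of start sites with PromoterPipeline. As deposited, TPM is the authors' scaling of these tags to 1000000 per library. Strand is given by the CAGE tag. Every per-sample column entered the fits. Over the 72 pairs of libraries within groups, chi-square per cluster was at least 12.5, so none was a duplicate.

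Counts were normalized by TMM and tested by quasi-likelihood with edgeR 4.0.16 in R 4.3.3. A single fit held all 28 libraries of experiment #1 (10,776 clusters with tags), and another the 10 of experiment #2 (10,816 clusters). FDR stands for the Benjamini-Hochberg adjusted p-value over the whole table, and 0.05 was the threshold. The SE is the log2 fold change divided by the square root of F, and intervals are 2 SE on each side. Levels are TPM, which do not carry the TMM factor. The p-values measure the spread between mice, which includes counting error. That was not separated, and weighs most where tags are few, as for Psat1 and Chac1 in experiment #2.

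Clusters were assigned with GENCODE M21. A gene of a list was read at its cluster of highest mean. Every member is given in every comparison. Of each list, counts are given in some of the comparisons. Up to 4 called genes are named, those with the largest change from the Pre to Mid, HiT to Mid or Mid to Dep. A few more were named after their values were seen. The members and the lists were chosen with earlier results of these data known. All 9 members have a RefSeq promoter window, and motifs were searched on both strands of 32,851 windows. The share of a gene's tags among its own promoters was not tested, since no member had more than 1 cluster. Marker lists were made for slow and fast fibers, adipocytes, macrophages, neutrophils, red blood cells, tendon and endothelium. Besides the markers in the report, the marker genes called from the Pre to Mid were 1 of 5 adipocyte genes (Plin1, lower), 1 of 4 tendon genes (Scx, lower) and 3 of 4 endothelial genes (1 higher, 2 lower), and none of the 4 red blood cell genes by edgeR. From the Mid to Post, 1 slow fiber, 1 adipocyte and 1 tendon gene were called higher and 2 endothelial genes called, 1 higher and 1 lower. From the Pre to Dep, 4 neutrophil genes were higher, with a sum of 117 TPM in Dep replicate 1 and at most 0.824 TPM in the other Dep mice. Between the same groups 1 tendon gene was lower, and 1 endothelial gene was higher and 2 lower.

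Alternatives tried were DESeq2 1.42.0, the likelihood ratio test in edgeR, RLE and upper-quartile scaling, library size without TMM, the filter filterByExpr, a fit of only the compared groups, the replicate number as a block, the lane, both experiments in 1 fit, and each library left out in turn. The test was also run on simulated counts, and the result of that run is not reported here. The comparisons of experiment #1 share the Mid or the Pre libraries. Pathway enrichment and oxygen consumption were not analysed here.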

Additional observations from a re-analysis of the deposited data

Results flagged for a closer look

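Over 42 sets of values, of the 6 members in the groups of 4 to 10 mice, 2 had 1 mouse far from the others by Dixon's ratio of the gap to the range. Chance gives this in about 1 of 20 sets. The ratio was taken on TPM and not on scaled values. In the Mid of experiment #2, Chac1 was at 20.5 TPM in replicate 12, and the next highest mouse was at 16.7 TPM. With TMM scaling these 2 mice were at 22.7 and 19.4 CPM. In the Post of experiment #1, Ppp1r15a was at 12.1 TPM in replicate 1, and the next lowest mouse was at 18.4 TPM. With TMM scaling replicate 1 was at 14.7 CPM, and the next lowest, replicate 4, was at 16.8 CPM.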

How the results depend on the processing

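In experiment #1, the 4 members called in the Pre to Mid and the 4 in the Fed to Mid were called in every alternative fit. No called value changed its direction. The 6 values that turned were not called in any fit. Atf5 from the Fed to Mid was -0.062 without TMM, -0.0010 with upper-quartile scaling and -0.016 with the replicate block, and between -0.023 and 0.14 with 1 library left out. Psat1 from the Mid to Dep was -0.068 without TMM, -0.035 with the replicate block, and between -0.064 and 0.14 with 1 library left out. With 1 library left out, Ppp1r15a from the Pre to Post was between -0.10 and 0.11, and Atf5 from the Pre to Mid of experiment #2 between -0.029 and 0.38. From the Mid to Post of experiment #2, Psat1 was -0.24 in the main fit and 0.21 with the lane as a term. Atf5 was 0.09 and -0.0029 in these 2 fits.

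The number of members called moved by over 1.5 times in these cases. From the Mid to Dep it was 0, but 1 by the likelihood ratio test, 2 by DESeq2, 2 with the replicate block (Chac1 and the Atf4 site), and 0 to 1 with 1 library left out. From the HiT to Mid it was 4, but 2 without TMM, 5 with RLE scaling and 6 by DESeq2, and 3 to 6 with 1 library left out. From the Pre to Post it was 1, but 0 without TMM, and 0 to 1 with 1 library left out. In experiment #2 it was 4 from the Pre to Mid and 1 to 4 with 1 library left out, where a Pre group of 1 mouse is taken to vary like the others, and from the Mid to Post it was 4, and 2 with the lane as a term. The cause was not tested.

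The replicate numbers of experiment #1 do not pair the mice: over 60 pairs of libraries with the same number the correlation of deviations from the group means was between -0.62 and 0.46, and 3 of 24 libraries resembled their own number best. Besides the calls above, the replicate block added Chac1 from the HiT to Mid (FDR = 0.00729) and from the Pre to HiT (FDR = 0.0212), and took away Ddit3 from the HiT to Mid (FDR = 0.165) and Atf5 from the Mid to Post (FDR = 0.0923). No paired analysis was possible for experiment #2 because its compared groups share no replicate number.

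Without TMM the median of all promoters moved by up to -0.18 (Pre to Dep), and 534 promoters were higher and 924 lower from the Pre to Mid, beside 1659 and 1594 with TMM, 808 and 822 from the Mid to Post, beside 1881 and 1890, 1313 and 1010 from the HiT to Mid, beside 2070 and 2352, 509 and 1672 from the Fed to Mid, beside 1788 and 2009, 584 and 1390 from the Pre to HiT, beside 1997 and 1607, 365 and 1079 from the Pre to Dep, beside 1479 and 1304, 7 and 2 from the Mid to Dep, and 10 and 11 from the Pre to Post, beside 113 and 86. From the Mid to Dep, 125 were higher and 94 lower, and 2 and 0 in a fit of only these groups, 245 and 234 by DESeq2, 189 and 154 by the likelihood ratio test, and 218 and 189 with the block. DESeq2 called 186 and 140 from the Pre to Post. With the lane, 148 and 337 passed from the Mid to Post of experiment #2, beside 836 and 936.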

Other observations

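Among the 8 Mid mice of experiment #1, relations between members were computed after their values were seen, over 15 pairs, on log2 values scaled with TMM. None of the 15 passed an adjusted p of 0.05 by Pearson's r with an exact permutation test, where 3 were below 0.05 unadjusted. The closest pair was the Atf4 site and Ppp1r15a, with r = 0.85 (exact permutation p = 0.00809, adjusted p = 0.0642), Spearman's rho = 0.81 (exact permutation p = 0.0218, adjusted p = 0.105) and r = 0.82 without the 2 mice farthest from the median of Atf4. By rank, 2 pairs passed. Atf5 and Psat1 had Spearman's rho = -0.93 (exact permutation p = 0.00223, adjusted p = 0.0335) and r = -0.68, and r = -0.59 without the 2 mice farthest from the median of Atf5. Atf5 and Ppp1r15a had rho = 0.90 (exact permutation p = 0.00456, adjusted p = 0.0342) and r = 0.81, which was 0.44 without these 2 mice, so that this r rests on them, though leaving them out also narrows the range of Atf5. Chac1 and the Atf4 site had r = 0.54 (exact permutation p = 0.183, adjusted p = 0.458) and rho = 0.10 (exact permutation p = 0.840, adjusted p = 0.969).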
